A study of Mus musculus with 4 samples.

Results

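Collagen is among the most heavily processed proteins a cell secretes. Its chains enter the endoplasmic reticulum (ER) through the Sec61 translocon, prolines and lysines are hydroxylated before the chains wind into a triple helix, and chaperones hold unfolded chains back and steady the finished helix. Procollagen then leaves in vesicles coated by the COPII complex, and a general chaperone system, raised in many cells by the unfolded protein response, folds the other secreted proteins. Tendon fibroblasts, which make large amounts of type I collagen, depend on this route, and several of its genes are mutated in human osteogenesis imperfecta.

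The 44 genes described here were chosen by name as collagen hydroxylases and chaperones, ER folding and stress genes, and translocon, COPII and retrieval genes. All 44 were found among the 23352 gene entries of the 2 deposited tables. RNA came from Achilles tendons of male mice homozygous for the Scx-EGFP reporter on a C57BL/6 background, in which green fluorescent protein marks cells that use the tendon transcription factor gene Scx. The 4 groups were right tendons cut by tenotomy at 6 months of age (9 mice), sham-operated left tendons at 6 months (5 mice), tendons cut at 7 days of age (11 mice) and sham-operated tendons at 7 days (11 mice). The RNA of each group was pooled into 1 library, 5 days after the operation, and only the distal stump, freed of surrounding connective tissue, was taken after tenotomy. The tenotomy labels also speak of uninjured tendon, and the libraries are grouped here by the operation that their titles name.

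With 1 library per group the spread between animals was not measured, so no difference below has a replicate check and none was tested. Values are FPKM (fragments per kilobase of transcript, scaled to the mapped fragments of the library). Ratios are log2 of tenotomy over sham after adding 1 FPKM to each, and "higher" or "lower" without further words means at least 2-fold on that scale. Steps between low values gave the depths that the FPKM scale implies, which may differ from the fragments sequenced. They were about 2430000 fragments for tenotomy and 1800000 for sham at 6 months. At 7 days they were 3290000 for tenotomy and 2690000 for sham. Bracketed intervals are approximate 95% counting intervals of the log2 FPKM ratio, from the fragments implied by each gene's annotated transcript length, and they cover counting error only.

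The labelled tissue was checked against 6 tendon genes (Scx, Tnmd, Mkx, Fmod, Thbs4 and Kera), all of which were at or above 5 FPKM in every library. Their sum was 587 FPKM after tenotomy against 1262 after sham at 6 months, and 1395 against 1578 at 7 days. Of the 6, Tnmd alone went the other way at 6 months, at 47.0 against 36.9 FPKM. At 7 days Thbs4 alone did, at 627 against 302 FPKM. Genes of other tissues differed between the libraries as well. The 12 mature muscle genes took 2.25% of all FPKM after tenotomy against 6.90% after sham at 6 months, and 0.00797% against 3.41% at 7 days. The 10 macrophage genes summed to 1997 FPKM after tenotomy against 506 after sham at 6 months, and to 1113 against 415 at 7 days. Sums of 5 bone-forming genes were 43.7 against 372 FPKM at 6 months and 25.7 FPKM in both libraries at 7 days, and those of 5 cartilage genes were 59.9 against 139 and 249 against 336. The cartilage genes did not move together at 7 days. Col2a1 (31.7 against 110 FPKM) and Col11a2 (44.3 against 182) stood lower after tenotomy. Acan (153 against 37.2), Sox9 (11.4 against 3.41) and Matn3 (8.55 against 2.78) stood above their sham values. For 4 endothelial genes the sums were 83.3 against 41.1 FPKM and 199 against 119.7, and for 4 adipocyte genes 32.6 against 20.7 and 104 against 239.5. The part that a changed cell mixture has in the results below was not tested, and in pooled tissue fewer cells of a type and less RNA per cell cannot be told apart.

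Several general chaperone genes share a promoter element, and their promoters are shown because the levels of these chaperones are compared below. The ER stress response element (ERSE) was searched as CCAAT, 9 bases of any kind and CCACG, on both strands from 250 bases before to 50 bases after each start site. Promoters for 36 of the 44 genes were matched in RefSeq (GRCm38.p6). ERSE letters stood in 7 of the 36, against 0.137% of all 27025 genes with a promoter in the same table. Only exact letters were counted. The 44 were chosen by name to hold ER folding and stress genes, so this excess is not a result of these libraries. All 7 were among the 12 general chaperone genes with a promoter. They are printed 5′ to 3′ along the gene's own strand with the ERSE letters in capitals, and a run that begins CGTGG is the element on the other strand.
Hspa5, chr2:34772017-34772051: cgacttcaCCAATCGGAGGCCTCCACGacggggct
Hsp90b1 (distal), chr10:86705630-86705664: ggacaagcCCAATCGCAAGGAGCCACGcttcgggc
Hsp90b1 (proximal), chr10:86705525-86705559: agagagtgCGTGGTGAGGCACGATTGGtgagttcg
Pdia6, chr12:17266483-17266517: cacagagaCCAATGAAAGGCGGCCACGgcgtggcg
Calr, chr8:84847067-84847101: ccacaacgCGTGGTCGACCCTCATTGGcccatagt
Canx, chr11:50325792-50325826: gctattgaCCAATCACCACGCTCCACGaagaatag
Creld2, chr15:88819512-88819546: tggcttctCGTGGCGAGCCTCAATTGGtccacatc
Dnajc3, chr14:118937819-118937853: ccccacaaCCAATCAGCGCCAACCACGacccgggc

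The element began 65 bases before the start site in Hspa5, 98 in Pdia6, 105 in Dnajc3, 126 in Creld2, 145 in Canx and 162 in Calr, and 212 and 107 bases before it in Hsp90b1. A shorter element bound by the spliced form of Xbp1, TGACGTGG, stood in 3 of the 36 genes and in 0.714% of all genes. The 3 were the export and retrieval genes Sec24d, Kdelr3 and Sec23a, and the runs upstream of a start site were these.
Sec24d, chr3:123267462-123267485: cgggcgccTGACGTGGcactagca
Kdelr3, chr15:79516370-79516393: ccgccccgCCACGTCAccgcgcgg
The related element ERSE-II, which is ATTGG, any base and CCACG, stood in Herpud1 and Dnajb11, against 0.0444% of all genes, and the amino acid response core TGATGNAA stood in Herpud1, against 4.51% of all genes. A run of letters is not a shown binding site, and the collagen hydroxylase and collagen chaperone promoters held no ERSE letters in this window.

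Taken as a whole, the 44 genes stood at higher levels after tenotomy than after sham at both ages, by amounts mostly short of 2-fold. Their summed FPKM was 2462 after tenotomy against 1633 after sham at 6 months, and 4841 against 3007 at 7 days. As a share of the FPKM of ordinary genes, which leaves out small RNAs, mitochondrially encoded genes and the 12 muscle genes, they made up 0.905% against 0.514% at 6 months and 1.41% against 0.835% at 7 days. At 6 months the ratio was above 0 for 36 of the 44, where 48.4% of all 9001 genes at or above 5 FPKM were. At 7 days it was above 0 for 38, where 51.0% of 9424 genes were. The other scalings gave 37 to 40 of 44 such genes at 6 months. At 7 days they gave 38 and 40 of 44 and, without muscle genes and small RNAs, 39 of 43. The all-gene share above 0 was larger too where these counts rose. For the 40 at 6 months, without muscle genes and small RNAs, it was 60.8%. At 7 days it was 62.6% for the 40, with FPKM rescaled to a common sum, and 56.2% for the 39 of 43.

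Past 2-fold at 6 months were 4 genes, Serpinh1, Pdia3, Pdia4 and P4ha3, all higher; of all genes, 9.62% were higher and 11.9% lower. The share of the 44 that was higher thus lay close to the background. At 7 days 10 were higher and 1 lower, where 5.55% of all genes were higher and 10.3% lower. The 10 were Plod2, P4ha3, Pdia3, Manf, Plod3, Sec61a1, Calr, Pdia4, P4hb and Pdia6, and the lower one was Ddit3. A threshold of 1.5-fold took in 20 higher and 1 lower at 6 months, against 19.9% and 23.9% of all genes, and 23 higher and 3 lower at 7 days, against 14.8% and 18.2%. The median log2 ratio of the 44 was 0.52 at 6 months, against -0.03 for all genes, and 0.60 at 7 days, against 0.01.

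**Figure D1:**
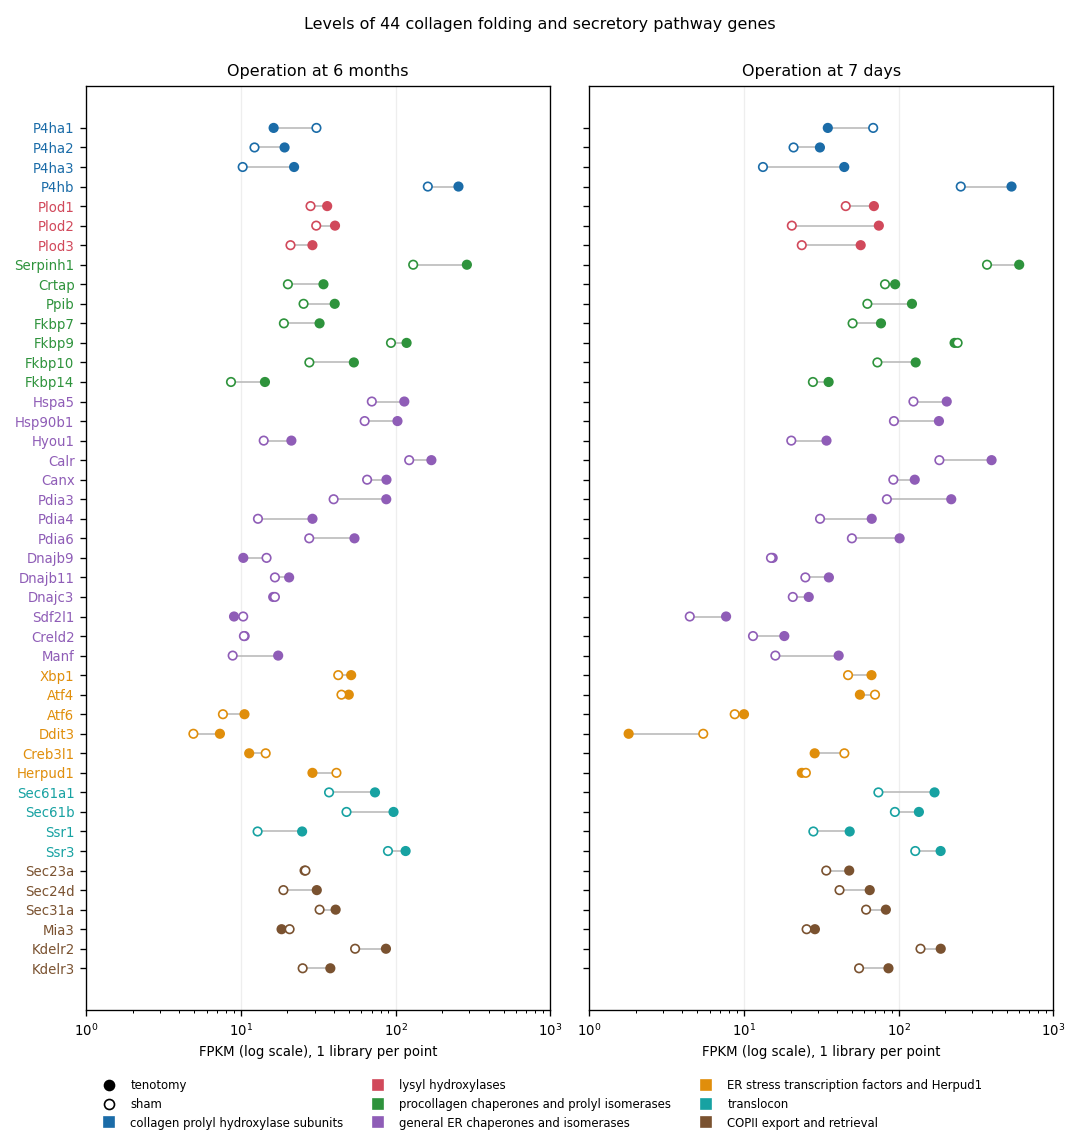
FPKM on a log axis for each of the 44 genes, with tenotomy filled and sham open, 1 library per point, in rows coloured by role. Most filled points lie to the right of their open partner at both ages, while P4ha1, Creb3l1 and Herpud1 lie the other way.

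Of the genes on either side of the threshold, P4ha3 was just inside it at 6 months (log2 ratio 1.03) and Sec61b just outside (1.99-fold). At 7 days Pdia6 was just inside (1.01) and Hsp90b1 just outside (0.96). Genes past 2-fold at both ages were 3 in number, P4ha3, Pdia3 and Pdia4. The ratio was above 0 at both ages for 33 genes, below 0 at both for P4ha1, Creb3l1 and Herpud1, and of opposite sign for 8. Dnajc3, Sdf2l1, Sec23a and Mia3 at 6 months, and Fkbp9 and Herpud1 at 7 days, changed sign under another setting. In the authors' deposited table none of the 44 was called significant at either age. The smallest p-values there were 0.12 at 6 months for Pdia4 and 0.0199 at 7 days for P4ha3, with q-values of 0.97 and 0.67.

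**Figure D2:**
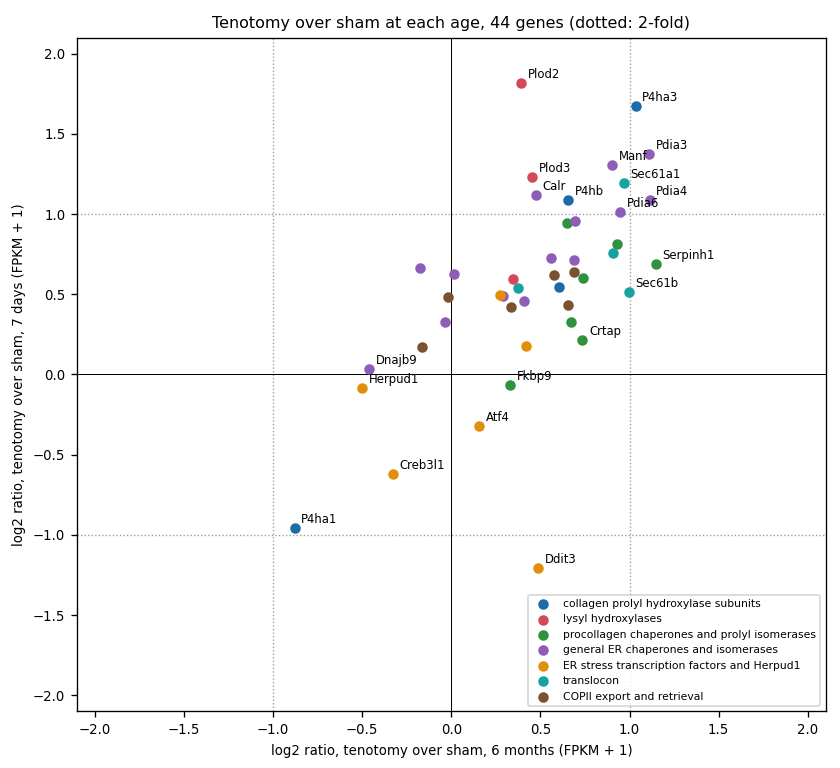
Log2 ratio of tenotomy over sham at 6 months (x axis) and at 7 days (y axis) for the 44 genes, coloured by role, with dotted lines at 2-fold. P4ha3, Pdia3 and Pdia4 lie past 2-fold on both axes, Plod2 and Plod3 past it at 7 days, Serpinh1 past it at 6 months, and P4ha1 on the lower side of both.

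Prolyl 4-hydroxylase, whose product 4-hydroxyproline keeps the collagen helix stable at body temperature, is built from a catalytic alpha subunit and the beta subunit P4hb, and its 3 alternative alpha subunit genes went different ways. P4ha1, the widely used alpha subunit (chr10:59323295-59373304 in the files' mm10 coordinates), stood at 16.3 FPKM after tenotomy against 30.8 after sham at 6 months, and at 34.8 against 68.5 at 7 days. Its log2 ratio was -0.88 (-1.23 to -0.61) at 6 months and -0.95 (-1.15 to -0.80) at 7 days, short of 2-fold lower at both ages and negative under every setting tried. It had the lowest ratio of the 44 at 6 months.

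P4ha3 (chr7:100285519-100319699) stood at 22.1 FPKM after tenotomy against 10.3 after sham at 6 months, and at 44.5 against 13.3 at 7 days. That is 2.05-fold higher at 6 months (log2 ratio 1.03, 0.57 to 1.66) and 3.19-fold higher at 7 days (1.67, 1.38 to 2.13). P4ha2 stood at 19.2 against 12.2 FPKM at 6 months and at 31.0 against 20.9 at 7 days, within 2-fold at both ages.

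The summed level of the 3 alpha genes barely differed, at 57.5 FPKM after tenotomy against 53.3 after sham at 6 months and at 110.3 against 102.6 at 7 days. Their make-up did. P4ha1 made up 28.3% of the sum after tenotomy against 57.8% after sham at 6 months, and 31.6% against 66.7% at 7 days. P4ha3 made up 38.4% against 19.3% at 6 months and 40.3% against 12.9% at 7 days. In both sham libraries P4ha1 was the leading alpha gene, and in both tenotomy libraries P4ha3 was. At 6 months the lead of P4ha3 was narrow. There P4ha2 made up 33.3% after tenotomy, on about 95 fragments against 116 for P4ha3. Such shares are taken within a library and do not depend on how libraries are scaled to each other. Muscle genes were likewise lower after tenotomy at both ages, with the shares given above, and their part in the level of P4ha1 was not tested.

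P4hb, also the protein disulfide isomerase of the ER, was the second most abundant of the 44 in 3 libraries and the most abundant in the 6-month sham library. It stood at 255 FPKM after tenotomy against 162 after sham at 6 months (log2 ratio 0.65, 0.53 to 0.78) and at 537 against 252 at 7 days (1.09, 1.01 to 1.17). For each FPKM of alpha subunit there were 4.43 of P4hb after tenotomy against 3.03 after sham at 6 months, and 4.87 against 2.46 at 7 days.

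**Figure D3:**
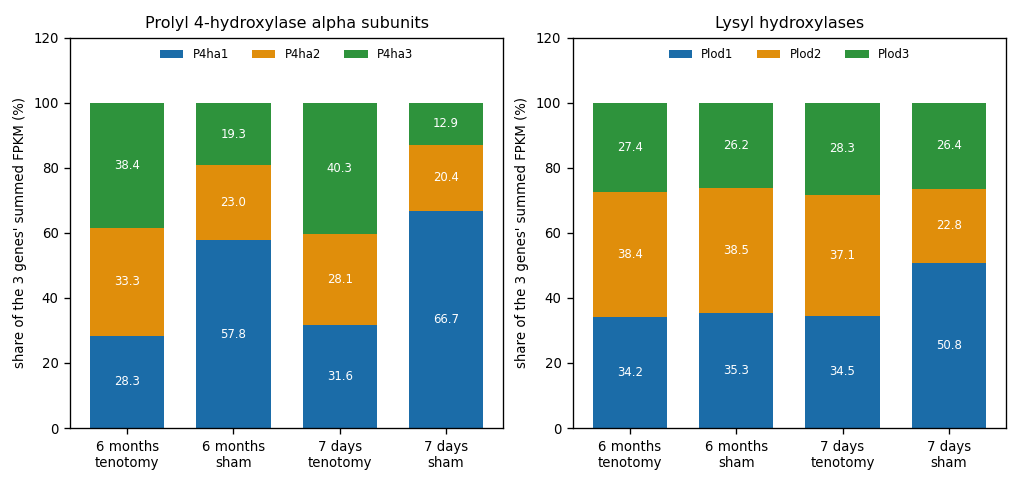
Stacked bars of the share of each alpha subunit gene (left) and each lysyl hydroxylase gene (right) in the summed FPKM of its 3 genes, 1 library per bar. P4ha1 holds 28.3% and 31.6% in the tenotomy libraries, against 57.8% and 66.7% in the sham libraries, and the 7-day sham library stands apart on the right, with Plod2 at 22.8%.

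Lysyl hydroxylases modify collagen lysines that later carry sugars and crosslinks. Plod2, which acts on the short non-helical ends of collagen where stable crosslinks form, had the largest ratio of all 44 at 7 days. It stood at 74.5 FPKM after tenotomy against 20.4 after sham, 3.53-fold higher (log2 ratio 1.82, 1.64 to 2.11). At 6 months it stood at 40.6 against 30.7 FPKM (0.39, 0.14 to 0.66). Plod2 (chr9:92538800-92608427) was highest in the 7-day tenotomy library and lowest in its sham, with both 6-month libraries in between.

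Plod3, which also adds sugars to hydroxylysine, stood at 29.0 FPKM after tenotomy against 20.9 after sham at 6 months and at 56.8 against 23.6 at 7 days, 2.35-fold higher at the younger age. Plod1, which acts on lysines within the helix, stood at 36.1 against 28.2 FPKM and at 69.2 against 45.5 FPKM. Within the family, Plod2 made up 38.4% after tenotomy against 38.5% after sham at 6 months, and 37.1% against 22.8% at 7 days. The neonatal sham library was the one with a different make-up, led by Plod1 at 50.8%.

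Dedicated collagen chaperones were led by Serpinh1, the heat shock protein HSP47, which binds the folded triple helix and travels with it out of the ER. Serpinh1 (chr7:99345374-99353239) stood at 289 FPKM after tenotomy against 130.0 after sham at 6 months, 2.21-fold higher (log2 ratio 1.15, 1.005 to 1.31). At 7 days it stood at 602 against 373 FPKM (log2 ratio 0.69, 0.61 to 0.77), and it was the most abundant of the 44 in every library but the 6-month sham. Its ratio had the largest value of the 44 at 6 months.

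Crtap and the prolyl isomerase Ppib (cyclophilin B) form a complex with a prolyl 3-hydroxylase. Crtap stood at 34.2 FPKM after tenotomy against 20.1 after sham at 6 months and at 94.9 against 81.6 at 7 days. Ppib stood at 40.4 against 25.4 FPKM at 6 months and at 122 against 62.8 at 7 days. Their partner Lepre1, the prolyl 3-hydroxylase 1 gene and not one of the 44, was higher at both ages, at 24.6 against 11.1 FPKM and at 65.9 against 25.1 FPKM. Thus Lepre1 passed 2-fold at both ages where Crtap and Ppib did at neither, though Ppib came close at 7 days (1.93-fold). At 6 months the intervals of Crtap (0.29 to 1.26) and Ppib (0.03 to 1.31) took in the Lepre1 ratio of 1.08. At 7 days their intervals (0.007 to 0.42 and 0.64 to 1.28) lay under its ratio of 1.36.

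Of the isomerases of the FKBP family, Fkbp10 (FKBP65, another osteogenesis imperfecta gene) stood at 53.8 FPKM after tenotomy against 27.7 after sham at 6 months and at 129 against 72.9 at 7 days. Fkbp7 stood at 32.3 against 18.97 FPKM and at 76.9 against 50.4 FPKM, and Fkbp14 at 14.3 against 8.63 FPKM and at 35.3 against 27.9 FPKM. Fkbp9, the most abundant of the 4, stood at 118 against 93.4 FPKM at 6 months and at 230.0 against 241 at 7 days. None of the 4 passed 2-fold. The median log2 ratio of the 7 collagen chaperones and isomerases was 0.74 at 6 months and 0.60 at 7 days.

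Set against type I procollagen, the 5 quantities plotted below stood higher after tenotomy at both ages. Type I collagen itself was nearly level at 6 months and stood lower after tenotomy at 7 days, which by itself raises the 7-day quantities. Col1a1 and Col1a2, the chains of type I procollagen, summed to 8645 FPKM after tenotomy against 8473 after sham at 6 months and to 20236 against 33457 at 7 days. For each 1000 FPKM of this sum there were 33.4 FPKM of Serpinh1 after tenotomy against 15.3 after sham at 6 months, and 29.7 against 11.1 at 7 days. The same quantity for P4hb was 29.5 against 19.1 at 6 months and 26.5 against 7.54 at 7 days. For the 3 lysyl hydroxylases together it was 12.2 against 9.42 and 9.91 against 2.68. For Hspa5, a general chaperone, it was 13.2 against 8.29 at 6 months and 10.1 against 3.73 at 7 days. For the 3 alpha subunits it was 6.65 against 6.29 at 6 months, nearly level, and 5.45 against 3.07 at 7 days. P4ha1 taken alone was less abundant after tenotomy on this scale at both ages. Relative to type I collagen the 2 tenotomy libraries were therefore close to each other, and the 7-day sham library was the lowest of the 4 for all 5 quantities plotted. Other chains differed otherwise. Col3a1 stood at 2807 against 1652 FPKM at 6 months and at 4607 against 2449 at 7 days, within 2-fold at both ages. Col5a1, which starts fibrils, was higher at both ages and stood at 256 against 120.4 FPKM at 6 months and at 571 against 232 at 7 days. Col12a1, a chain on the fibril surface, stood at 109.6 against 100.8 FPKM and at 399 against 148 FPKM, and was higher at 7 days.

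**Figure D4:**
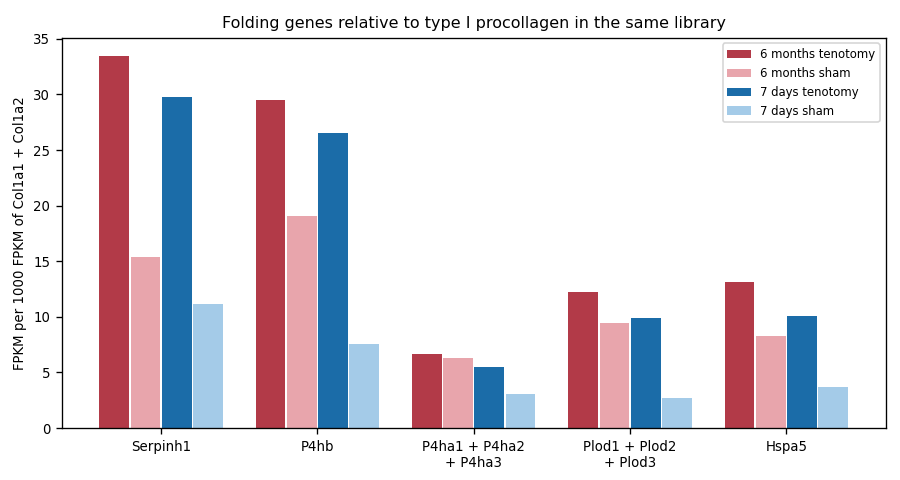
FPKM of Serpinh1, P4hb, the 3 alpha subunit genes, the 3 lysyl hydroxylase genes and Hspa5 per 1000 FPKM of Col1a1 plus Col1a2 in the same library, 1 library per bar. The tenotomy bar exceeds its sham bar for every quantity, by the least for the alpha subunits at 6 months (6.65 against 6.29).

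General chaperones and disulfide isomerases fold secreted proteins of every kind. Of these 14 genes, 2 were higher at 6 months and 5 at 7 days, and none was lower at either age, where 9.62% and 5.55% of all genes were higher. All 14 ratios were above 0 at 7 days and 11 were at 6 months, with medians of 0.72 and 0.52. Of the 3 below 0 at 6 months, Dnajc3 and Sdf2l1 changed sign under another setting. Pdia3 and Pdia4 had the largest ratios of the 14 at 6 months, and Pdia3, Manf and Calr at 7 days. Pdia3 (ERp57), which works with the lectin chaperones, stood at 87.1 FPKM after tenotomy against 39.8 after sham at 6 months and at 219 against 83.9 at 7 days. Pdia4 (ERp72) stood at 29.0 against 12.9 FPKM at 6 months and at 67.0 against 31.0 at 7 days. The corresponding values of Pdia6 were 54.2 against 27.7 FPKM and 101.5 against 49.9 FPKM, 1.93-fold and 2.01-fold. Pdia3 and Pdia4 were thus higher after tenotomy at both ages, by 2.12-fold or more.

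Hspa5 (BiP), the central ER chaperone and usual readout of the unfolded protein response, stood at 114 FPKM after tenotomy against 70.2 after sham at 6 months and at 205 against 125 at 7 days. Its ratios of 0.69 (0.53 to 0.86) and 0.71 (0.61 to 0.82) were alike at the 2 ages and short of 2-fold. Hsp90b1 (GRP94) stood at 103 against 63.1 FPKM and at 182 against 93.2 FPKM, and Hyou1, which recharges BiP with nucleotide, at 21.2 against 14.0 and at 34.2 against 20.2. The lectin chaperone Calr stood at 170.5 against 122 FPKM at 6 months and at 399 against 183 at 7 days, the second being 2.17-fold. Its membrane-bound relative Canx stood at 87.3 against 65.5 FPKM and at 127 against 92.4 FPKM.

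The small genes that respond sharply to ER stress in cultured cells were at low levels. Manf, a small ER protein released under stress, stood at 17.4 FPKM after tenotomy against 8.85 after sham at 6 months and at 41.0 against 16.0 at 7 days, 2.47-fold. Creld2 stood at 10.6 against 10.5 FPKM at 6 months and at 18.2 against 11.4 at 7 days. Sdf2l1 stood at 9.03 against 10.3 FPKM at 6 months and at 7.66 against 4.46 at 7 days, on about 20, 17, 23 and 11 fragments. The co-chaperones Dnajb9, Dnajb11 and Dnajc3, which hand substrates to BiP or stimulate it, had ratios of -0.46, 0.29 and -0.03 at 6 months and 0.03, 0.49 and 0.33 at 7 days. Of this set Manf alone was past 2-fold, and at 7 days.

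Among the 7 genes with ERSE letters in the promoter, the ratios at 6 months ran from -0.03 for Dnajc3 to 0.95 for Pdia6. At 7 days they ran from 0.33 for Dnajc3 to 1.12 for Calr, with Pdia6 at 1.01. Of the 10 genes past 2-fold higher at 7 days, Calr and Pdia6 held the element, and no promoter was matched for Plod2, Manf and Sec61a1. None of the 4 past 2-fold at 6 months held it in the searched window.

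The stress regulators and Herpud1 are 6 genes, of which none was higher at either age, a count close to the background shares of 9.62% and 5.55%. At 6 months 4 of the 6 ratios were above 0. The median log2 ratio was 0.21 at 6 months and -0.20 at 7 days. Only transcript totals were measured, not the splicing of Xbp1, the translation of Atf4 or the cleavage of Atf6, through which these factors act. Xbp1 stood at 51.6 FPKM after tenotomy against 42.6 after sham at 6 months and at 66.8 against 47.1 at 7 days. Atf4 stood at 49.8 against 44.7 FPKM and at 56.2 against 70.3 FPKM, and Atf6 at 10.5 against 7.65 and at 10.0 against 8.71.

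Ddit3 (CHOP), which promotes cell death under unresolved stress, stood at 7.32 FPKM after tenotomy against 4.93 after sham at 6 months, and at 1.80 against 5.46 at 7 days. The second was 2.31-fold lower, but it rests on about 4 and 10 fragments, and its counting interval of -3.74 to 0.18 includes 0. At 6 months the interval of about 12 and 6 fragments, -0.96 to 2.27, includes 0 too. Herpud1, a gene of ER-associated degradation, stood at 29.0 against 41.5 FPKM at 6 months and at 23.6 against 25.1 at 7 days. Creb3l1 (OASIS), an ER-bound factor that drives type I collagen transcription in mouse bone, stood at 11.3 against 14.5 FPKM and at 28.7 against 44.6 FPKM. Its log2 ratio was -0.33 (-0.89 to 0.16) at 6 months and -0.62 (-0.89 to -0.38) at 7 days, beside 0.05 and -0.76 for Col1a1.

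Translocon genes admit new chains into the ER. Sec61a1, its channel subunit, stood at 73.6 FPKM after tenotomy against 37.2 after sham at 6 months and at 171 against 74.0 at 7 days, 1.96-fold and 2.29-fold. Sec61b, a small channel subunit, stood at 97.0 against 48.2 FPKM and at 135 against 94.6 FPKM. The translocon-associated subunit genes Ssr1 and Ssr3 stood at 24.9 against 12.8 FPKM and at 116 against 89.3 FPKM at 6 months. At 7 days Ssr1 stood at 48.3 against 28.1 FPKM and Ssr3 at 187 against 128. The median of the 4 was 0.94 at 6 months, the largest of the 7 role groups there, and 0.65 at 7 days.

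Export genes carry procollagen on to the Golgi, and their median ratio, with the retrieval receptors, was 0.46 at both ages. Without the receptors, the median of the 4 export genes was 0.16 at 6 months, with 2 ratios below 0. At 7 days it was 0.45, with all 4 above 0. The 2 receptors alone had medians of 0.61 and 0.53. None of the COPII genes Sec23a, Sec24d and Sec31a, nor Mia3 (TANGO1), which loads bulky procollagen into the vesicles, passed 2-fold at either age, a count close to the background shares. Sec24d, a cargo-selecting coat subunit, stood at 31.0 FPKM after tenotomy against 18.8 after sham at 6 months and at 65.0 against 41.5 at 7 days. Sec23a, its inner coat partner, stood at 25.8 against 26.2 FPKM and at 47.9 against 34.0 FPKM. The outer coat gene Sec31a stood at 41.0 against 32.3 FPKM and at 82.7 against 61.6 FPKM, and Mia3 at 18.3 against 20.7 and at 28.7 against 25.4. The receptors that return escaped ER proteins, Kdelr2 and Kdelr3, had ratios of 0.65 and 0.58 at 6 months and of 0.43 and 0.62 at 7 days.

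Other genes of the same route, from lists of genes outside the 44, were counted for comparison. Most of these counts lie near or below the shares over all genes, 9.62% higher and 11.9% lower at 6 months and 5.55% higher and 10.3% lower at 7 days. Of 7 other collagen modification genes at or above 5 FPKM, 1 was higher and 2 lower at 6 months (median 0.22), and 1 was higher and 1 lower at 7 days (median 0.50). Lepre1 was the higher one at both ages. Tmem38b, a gene for an ER potassium channel mutated in osteogenesis imperfecta, was lower at both, at 7.27 FPKM after tenotomy against 37.3 after sham at 6 months and at 3.78 against 20.5 at 7 days. Leprel1, a prolyl 3-hydroxylase gene, was the other lower one at 6 months, at 6.02 against 21.9 FPKM.

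Of the ER folding, stress and degradation genes outside the 44, 21 were measured at 6 months, with 1 higher (Edem1) and none lower (median 0.21). At 7 days 22 were measured, with 2 higher, Pdia5 and Creb3l2, and 2 lower, Atf3 and Chac1 (median 0.34). Pdia5, a further disulfide isomerase, stood at 35.7 FPKM after tenotomy against 7.85 after sham at 7 days, the largest ratio of the list (2.05), and at 12.3 against 5.86 at 6 months. Atf3 and Chac1, targets of the Atf4 and Ddit3 branch, stood at 4.79 against 28.3 FPKM and at 1.55 against 5.68 FPKM at 7 days. At 6 months Atf3 stood at 11.3 against 9.68 FPKM and Chac1 at 6.00 against 7.68. Of 39 other translocation, export and retrieval genes, none was higher and 1 lower at 6 months (Sar1b, median 0.32). At 7 days 3 were higher (Sec11a, Stt3a and, named after its values were seen, Rpn1) and 1 lower (Trappc2, median 0.33).

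Ages were set side by side across the 2 tables, which may have been normalized separately, so a shift common to all genes is given with each count. Adult libraries held less of most of these transcripts than neonatal ones. Between the tenotomy libraries, 17 of the 44 were lower at 6 months than at 7 days and 1 was higher, where 10.1% and 6.61% of 9201 genes were. Between the sham libraries, 15 were lower and 1 higher, where 13.1% and 6.67% of 9323 genes were. The median log2 ratio of 6 months over 7 days was -0.92 after tenotomy and -0.70 after sham, against -0.25 for all genes in both. It was above 0 for 4 of the 44 after tenotomy and 3 after sham, where 33.4% and 35.5% of all genes were. The count lower after tenotomy depended strongly on scaling. It was 4 with ratios centred on all genes and 31 with FPKM rescaled to a common sum. It was 2 with a common sum that leaves out muscle genes and small RNAs. The all-gene median shifted by -0.31 with the plain common sum and by 0.34 without muscle genes and small RNAs. All-gene shares lower under these scalings are not given here. Small RNAs and mitochondrially encoded genes took 51.7% (tenotomy) and 41.3% (sham) of all FPKM at 6 months. At 7 days they took 27.3% and 28.6%. Their part in these counts was not tested.

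**Figure D5:**
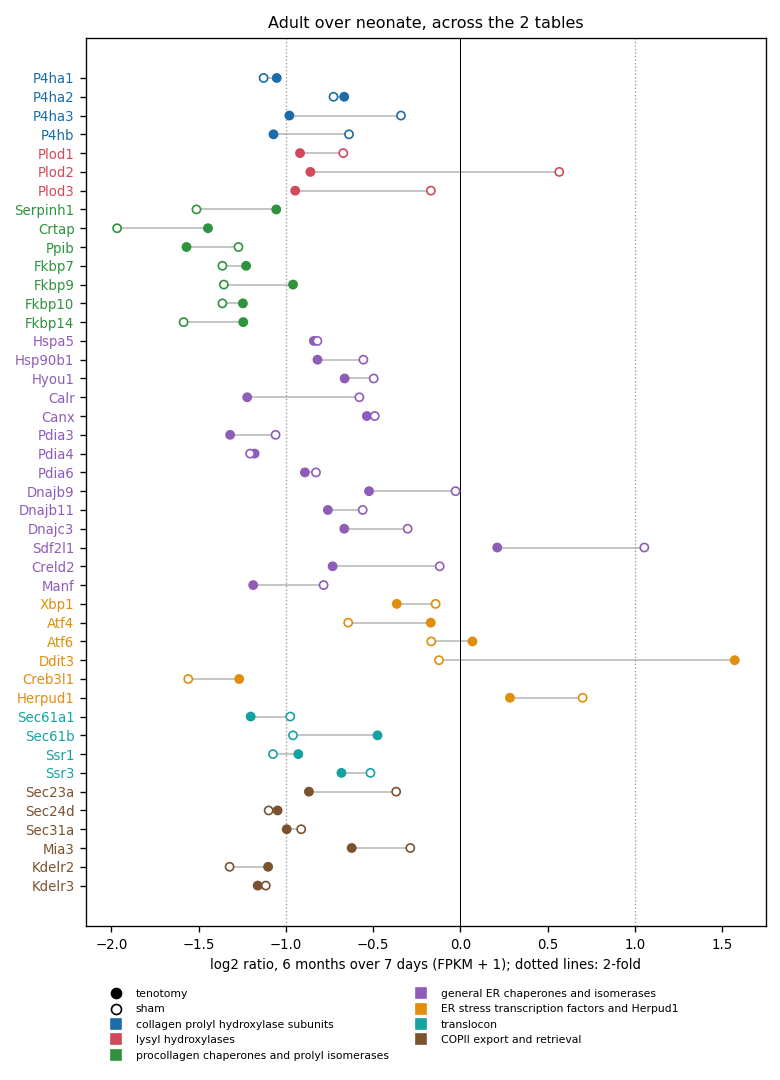
Log2 ratio of 6 months over 7 days for each of the 44 genes, between the tenotomy libraries (filled) and between the sham libraries (open), with dotted lines at 2-fold. Of the 14 points of the 7 collagen chaperones and isomerases, 13 lie past 2-fold lower, and Plod2, Ddit3 and Sdf2l1 have the widest gaps between their points, with at least 1 point right of 0.

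The 7 collagen chaperones and isomerases had the lowest median of the 7 role groups in both pairs. All 7 were lower at 6 months between the sham libraries and 6 of 7 between the tenotomy libraries, with medians of -1.36 and -1.24. The all-gene shares lower were 13.1% and 10.1%. After tenotomy the count was 2 of 7, Crtap and Ppib, with centred ratios or a common sum without muscle genes and small RNAs, and it was 7 of 7 with a plain common sum. After sham it was 7 of 7 under every setting. Crtap stood at 20.1 FPKM at 6 months against 81.6 at 7 days after sham, and at 34.2 against 94.9 after tenotomy. Creb3l1 was lower at 6 months in both pairs as well, with log2 ratios of -1.27 after tenotomy and -1.56 after sham. For Col1a1 the values were -1.20 after tenotomy and -2.01 after sham. The stress regulators and Herpud1, in contrast, had medians of -0.05 after tenotomy and -0.15 after sham.

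Plod2 went the other way between the sham libraries, at 30.7 FPKM at 6 months against 20.4 at 7 days, and stood at 40.6 against 74.5 between the tenotomy libraries. The difference between ages in the ratio of tenotomy over sham was at least 1 in absolute value for 2 genes, Plod2 (-1.43, larger at 7 days) and Ddit3 (1.69, on the few fragments given above). Of all 10077 genes, 8.82% had a difference of at least 1 and 5.64% of at most -1. The ratio was larger at 6 months for 17 of the 44, where 52.2% of all genes were, and larger at 7 days for 27. The median difference of -0.12 turned to 0.026 with a common sum that leaves out muscle genes and small RNAs. For the list as a whole the 2 ages could not be ranked.

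Some values carry uncertainty from the annotation. In GENCODE M21, 9 of the 44 genes overlapped a protein-coding gene on the opposite strand, namely Plod3, Ppib, Fkbp10, Fkbp14, Pdia3, Pdia6, Manf, Ddit3 and Kdelr3. The library kit kept strand, but it is not given here whether the authors' counting used it, so reads of such pairs may not be fully separated.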

How the data were processed

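Ribosomal RNA-depleted, directional libraries were made from 10 ng of pooled RNA with integrity values below 8 and sequenced as paired 75-base reads, per the labels' protocols. TopHat, Cufflinks and the mm10 assembly are named without versions or roles, per the submitters' processing notes. Annotation and settings: not given in the sources used here. Deposited by the authors was 1 table per age in the layout of a Cuffdiff comparison, with expression values taken as FPKM from that layout, and p-values and q-values per the file headers.

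Groups follow the labels' titles. The 44 genes and all lists were chosen with earlier results of these data known. Any of the 44 could be named, as could at most 12 other pathway genes past 2-fold and 5 procollagen genes. For each ratio, 1 FPKM was added to both values, and a gene entered with 5 FPKM or more in at least 1 of its libraries. There is 1 library per group, so nothing was tested. The calls were checked on simulated data that held counting error only, without the spread between animals. The result of 1 marker list is not reported here.

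Depth was taken from genes with 1 annotated transcript, 800 bp or longer, whose ends matched the tables within 5 bases. Their low values were whole fragments within 0.1 for 99.5% to 100% of 164 to 208 genes per library, after subtracting a fragment length of 200. Fragments of a gene were approximated from 1 annotated transcript length (ends matched for 11 of the 44, otherwise the principal transcript), and intervals are Clopper-Pearson at 95%. Alternatives changed the pseudocount, floor, scaling and threshold or took the authors' calls. Promoters came from RefSeq on GRCm38.p6, the assembly that mm10 names. Protein sequences were not used here, so the planned look at ER retention letters was not made. Tools were pandas 2.3.3, NumPy 2.4.6 and SciPy 1.17.1 under Python 3.11.15, with matplotlib 3.10.9 for plots.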

Additional observations from a re-analysis of the deposited data

Results flagged for a closer look

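Ddit3 was the single gene of the 44 whose ratio of tenotomy over sham had opposite signs at the 2 ages and differed by at least 1 between them. The difference (6 months minus 7 days) was 1.69 on the log2 scale, from 0.49 at 6 months and -1.21 at 7 days. The difference was not tested, since each group is 1 library, and both ratios rest on few fragments (about 12 and 6 at 6 months, 4 and 10 at 7 days). The related genes Atf3 and Chac1, named because they were past 2-fold at 7 days, had differences of 2.54 and 1.08. Atf3 had opposite signs at the 2 ages (0.21 at 6 months and -2.34 at 7 days). Chac1 was below 0 at both (-0.31 and -1.39). Atf4, one of the 44, differed by 0.47.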

How the results depend on the processing

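Medians are log2 ratios, and a median counts as moved when it shifts by at least 0.1. Of the settings tried for the summary values, 160 gave the value as reported within that margin or within 1.5 times for a count, 56 moved it and 1 reversed it. All 44 genes reached the floor in every comparison, so the setting without a floor could not change a value. Its results are among the 160 and were fixed in advance. The cause of each move was not tested. For single genes past 2-fold, 126 settings with a value kept the call and 7 lost it, none with a change of sign; 6 of the 7 were a pseudocount of 5 FPKM (P4ha3 and Pdia4 at 6 months, Pdia4, Pdia6 and Ddit3 at 7 days, and the difference of Ddit3) and 1 was Pdia6 at 7 days with centred ratios. In 3 more settings Ddit3 lay under the floor and had no value. Settings that change only the floor leave a gene's ratio as it was, and a 1.5-fold threshold keeps any gene past 2-fold. Their part of the 126 was therefore fixed in advance. No paired analysis was possible because each group holds 1 library.

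At 6 months the 4 higher genes became 2 with a pseudocount of 5 FPKM, 20 at 1.5-fold (with 1 lower) and 10 with a common sum that leaves out muscle genes and small RNAs. That scaling moved the medians to 0.74 (all 44), 0.85 (prolyl hydroxylase subunits), 0.61 (lysyl hydroxylases), 0.95 (collagen chaperones), 0.74 (general chaperones), 0.43 (stress regulators), 1.16 (translocon) and 0.67 (export and retrieval), beside a shift of 0.24 in the median of all genes. A floor of 20 FPKM gave 0.69 for general chaperones, and a pseudocount of 5 FPKM 0.82 for the translocon.

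At 7 days 23 genes were higher and 3 lower at 1.5-fold, and the single lower gene, Ddit3, became 0 with a pseudocount of 5 FPKM, a floor of 20 FPKM or the scaling without muscle genes. FPKM rescaled to a common sum gave medians of 0.76 (all 44), 0.98, 1.39, 0.76, 0.88, -0.041, 0.81 and 0.62 for the groups in the order above, beside a shift of 0.16 in all genes. The lysyl hydroxylases had 1.11 with a pseudocount of 5 FPKM, general chaperones 0.96 with a floor of 20 FPKM, and the stress regulators -0.016 without muscle genes. The authors' deposited calls gave 0 of the 44 at either age.

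Between ages, the count lower at 6 months after tenotomy (17) became 31 with a common sum, 4 when centred, 2 without muscle genes and 35 at 1.5-fold. Its median became -1.24, -0.68 and -0.60 with the first 3 scalings. After sham (15 lower) it became 9 when centred and 25 at 1.5-fold, with medians of -0.90, -0.45 and -0.53 and of -0.83 with a floor of 20 FPKM. The single gene higher became 0 in both pairs with a pseudocount of 5 FPKM or a floor of 20 FPKM, 0 after sham with a common sum, and 2 after sham at 1.5-fold. For the difference between ages, the higher gene became 0 with a pseudocount of 5 or a floor of 20 FPKM, the lower ones 6 at 1.5-fold, and the median -0.24 with a common sum and 0.026, reversed, without muscle genes. The 6-month sham library had the lowest implied depth, and its Ddit3 value stood for about 6 fragments.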

Other observations

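Among the translocation and export genes outside the 44, Sar1b, the small GTPase that starts COPII coat assembly, had its own pattern over the libraries. It stood at 104.0 FPKM after tenotomy against 232 after sham at 6 months, and at 30.2 against 41.4 at 7 days. Its close relative Sar1a stood at 72.1 against 73.2 FPKM at 6 months and at 114 against 134 at 7 days. Sar1b was thus the more abundant of the pair in the adult libraries and Sar1a in the neonatal ones. The muscle genes, at 2.25% against 6.90% of FPKM at 6 months and 0.00797% against 3.41% at 7 days, were also higher after sham, and their part was not tested.

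The signal peptidase genes Sec11a and Sec11c, which encode alternative catalytic subunits, also differed from each other. Sec11a stood at 35.0 FPKM after tenotomy against 21.2 after sham at 6 months and at 69.2 against 29.9 at 7 days. Sec11c stood at 13.6 against 23.2 FPKM at 6 months and at 13.2 against 11.5 at 7 days. These pairs were chosen after their values were seen.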
